A study of Mus musculus with 11 samples.

Results

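The genes described here are the 10 apolipoprotein genes Apoa1, Apoa2, Apoa4, Apoa5, Apob, Apoc1, Apoc3, Apoe, Apoh and Apom, taken by symbol from the 31053 genes of mouse liver spatial transcriptomes after acetaminophen (APAP) overdose. All 10 were found once and all passed the filter on low counts. Across the injured liver the abundant members fell, led by Apoa2, while Apoa4 rose in every injured section. Under total-count scaling, of the abundant members only Apoa2 and Apoc1 were called lower at each injured time. In uninjured tissue 4 of the 10 were called higher around the portal tract (against 4.59% of all genes), and after injury all 10 were at 24, 36 and 48 h (against 11.6%, 10.6% and 25.6%). With total-count scaling of these zone counts, 7, 5 and 8 were called after injury, counted in either direction. Apoa1 turned at 48 h, to log2 -0.16, and was called lower around the portal tract.

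Apolipoproteins are the protein part of lipoproteins, the particles that carry fat and cholesterol through the blood, and hepatocytes make most of those in plasma. Apob is the backbone of very low-density lipoprotein (VLDL), the triglyceride-rich particle that the liver exports, and Apoa1 and Apoa2 are the main proteins of high-density lipoprotein (HDL). The small exchangeable members move between particles and tune their fate, through lipoprotein lipase (Apoc3 as an inhibitor, Apoa5 as an activator) or through uptake receptors (Apoe as a ligand). Hepatocytes differ along the lobule, from the portal tract where blood enters to the central vein, and APAP kills the central ones first.

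Spatial libraries were made with the Visium assay, which captures polyadenylated RNA on spots of a slide, each spot covering several cells. They came from 10 µm snap-frozen sections of liver of male C57BL/6JCrl mice aged 8 to 12 weeks. The injured mice were fasted and then given a single intraperitoneal dose of APAP, and whether the uninjured mice were fasted is not stated in the sources used here. Uninjured liver (0 h) gave 3 sections, numbered 2, 3 and 4. The times 24 h and 36 h had 2 sections each, lettered A and B, and 48 h had 4, lettered A to D. The disease label of the injured sections reads POD. The methods describe a single mouse liver per time point and the labels do not tie sections to mice, so p-values cover only the spread between sections, and mouse and time cannot be told apart. Passing spots numbered 1490 to 3466 per section and held 31292663 to 67045372 UMIs (unique molecular identifiers, 1 per captured transcript).

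All sections carried hepatocyte RNA: Alb, Ttr, Trf, Hp and Hnf4a summed to 100941 to 106550 CPM (UMI counts relative to library size, which was scaled by the trimmed mean of M values, TMM) at 0 h and to 75250 to 100347 after injury. Markers of other cells moved with time, and none was at 0 UMIs. The 6 mononuclear phagocyte markers summed to 493 to 525 CPM at 0 h, 619 to 659 at 24 h, 514 to 792 at 36 h and 862 to 1588 at 48 h. The 5 hepatocyte genes did not move together. Against 0 h, with TMM, 2 went up and 2 down among those called at 24 h, and likewise at 48 h. At 36 h 1 call went each way. Their sum is therefore not read as a measure of hepatocyte content. Fewer hepatocytes and less RNA per hepatocyte cannot be told apart in these sums.

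In the GENCODE annotation of build GRCm38 (mm10), 4 members lie side by side on chromosome 9, namely Apoa1 (ENSMUSG00000032083, chr9:46228580-46230466, plus strand), Apoc3 (ENSMUSG00000032081, chr9:46232933-46235636, minus), Apoa4 (ENSMUSG00000032080, chr9:46240696-46243459, plus) and Apoa5 (ENSMUSG00000032079, chr9:46268633-46271919, plus). Another cluster on chromosome 7 holds Apoc1 (ENSMUSG00000040564, chr7:19689481-19692660, minus) and Apoe (ENSMUSG00000002985, chr7:19696109-19699188, minus). The others stand alone: Apoa2 (ENSMUSG00000005681) at chr1:171225054-171226379, Apoh (ENSMUSG00000000049) at chr11:108343354-108414396, Apob (ENSMUSG00000020609) at chr12:7977648-8016835 and Apom (ENSMUSG00000024391) at chr17:35128997-35132050. Each coordinate spans the whole gene, exons and introns included.

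Stretches upstream of 3 members are shown because these genes moved apart: Apoa4 rose, its neighbour Apoa1 fell, and Apoa2 fell furthest. The letters are from RefSeq promoter windows (250 bases before to 50 after a start, build GRCm38.p6, plus strand), cut to end before the annotated gene, and 8 of the 10 members had a window, Apoc1 and Apoc3 having none. They run from chr9:46240594-46240695 for Apoa4, chr9:46228380-46228579 for Apoa1 and chr1:171224804-171225053 for Apoa2. Capitals mark CAAAGTTCA, a match to CAAAGTNCA, or TATAAA.
Apoa4: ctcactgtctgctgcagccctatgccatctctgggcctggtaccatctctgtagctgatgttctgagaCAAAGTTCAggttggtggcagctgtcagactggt
Apoa1: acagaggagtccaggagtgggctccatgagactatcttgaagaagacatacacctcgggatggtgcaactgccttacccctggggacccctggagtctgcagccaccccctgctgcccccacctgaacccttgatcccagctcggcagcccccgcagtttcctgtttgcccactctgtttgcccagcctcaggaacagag
Apoa2: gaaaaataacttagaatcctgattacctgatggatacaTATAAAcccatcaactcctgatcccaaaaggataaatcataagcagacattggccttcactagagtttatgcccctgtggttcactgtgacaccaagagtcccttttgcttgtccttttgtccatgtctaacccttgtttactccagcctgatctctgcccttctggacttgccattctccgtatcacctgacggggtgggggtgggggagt

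On either strand, CAAAGTNCA was found in 1.41% of 32851 promoter windows and, among the 12 windows of the members, in 1, that of Apoa4. The looser CAAAGNNCA, which contains it, was in 6.36% of all windows and in windows of Apoa4, Apob and Apoh. TATAAA was in 13.6% of all windows and in windows of Apoa2, Apoa5, Apob and Apoe. These were 3 of 9 patterns searched, and a match of letters is a description only.

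In uninjured liver Apoa2 was the second most abundant gene of all, and 5 members stood among the first 21. UMIs were counted at the 3′ end of transcripts, so CPM does not grow with transcript length, though capture can still differ between genes. The mean levels at 0 h, in CPM ± SD over 3 sections, were 33156 ± 2963 for Apoa2, 21349 ± 452 for Apoe, 17868 ± 611 for Apoc1, 16456 ± 1693 for Apoa1 and 8742 ± 364 for Apoc3. The remaining 5 were far lower, with Apoh at 1979 ± 174, Apoa5 at 1726 ± 252, Apob at 1336 ± 152, Apom at 785 ± 19.8 and Apoa4 at 133 ± 5.86. In that order the neighbours Apoc1 and Apoa1, and Apoh and Apoa5, overlapped between sections, and the other neighbours did not.

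The first comparison asked how each injured time point differed from uninjured liver. Apoa2, an HDL protein, fell most. It measured 36312, 32722 and 30434 CPM in the 0 h sections, 12787 and 11601 at 24 h, 17346 and 12843 at 36 h, and 13241, 12342, 11321 and 14167 at 48 h. Every injured section lay below every uninjured one, with no overlap. The share of all genes that separate in this way is not given here, so separation is a description only, for this and the other members. The log2 difference from 0 h was -1.44 (SE 0.16) at 24 h, -1.14 (SE 0.16) at 36 h and -1.38 (SE 0.13) at 48 h, which is 0.368, 0.455 and 0.385 of the uninjured level, and edgeR's quasi-likelihood test gave adjusted p = 0.000111, 0.00112 and 4.03e-05.

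Apoc1, an exchangeable protein that slows the uptake of remnant particles, fell to about the same degree at all 3 times. It measured 18380, 18033 and 17191 CPM at 0 h, 8438 and 8524 at 24 h, 9140 and 7436 at 36 h, and 9013, 8542, 7268 and 9955 at 48 h. Its groups did not overlap. Its log2 differences were -1.08 (SE 0.15), -1.11 (SE 0.15) and -1.04 (SE 0.12), with edgeR adjusted p = 0.000353, 0.000874 and 0.000112. Apoe, its neighbour on chromosome 7 and the ligand through which remnants bind their receptors, also fell. It measured 21870, 21071 and 21106 CPM at 0 h, 11580 and 11854 at 24 h, 13240 and 14324 at 36 h, and 12422, 11889, 11629 and 12390 at 48 h. Injured sections were again all below the uninjured ones, and the spread within each time was small. The log2 differences were -0.87 (SE 0.10), -0.63 (SE 0.10) and -0.82 (SE 0.08), with edgeR adjusted p = 0.000146, 0.002 and 5.69e-05. Macrophages also make Apoe. The phagocyte marker sum given above rose at 48 h, and Apoe was below its uninjured level then. The part of macrophages in the Apoe level was not tested.

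Apoc3, the inhibitor of lipoprotein lipase, measured 8820, 8346 and 9062 CPM at 0 h, 5691 and 5400 at 24 h, 5325 and 5769 at 36 h, and 5829, 5757, 5362 and 6280 at 48 h. Groups did not overlap, and the fall was nearly the same at each time. The log2 differences were -0.66 (SE 0.11), -0.66 (SE 0.11) and -0.59 (SE 0.09), with edgeR adjusted p = 0.00111, 0.00256 and 0.000564. Apoa1, the main HDL protein, measured 15261, 15714 and 18394 CPM at 0 h, 10898 and 11359 at 24 h, 9427 and 13672 at 36 h, and 8977, 8539, 9594 and 11226 at 48 h. All 8 injured sections were below the uninjured ones, but section B at 36 h came close to them. The log2 differences at the 3 times were -0.56 (SE 0.18), -0.51 (SE 0.18) and -0.78 (SE 0.14), with edgeR adjusted p = 0.0253, 0.0505 and 0.00157. The 24 h call was lost without 0 h section 4 or either 24 h section, while DESeq2 called the 36 h difference.

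**Figure D1:**
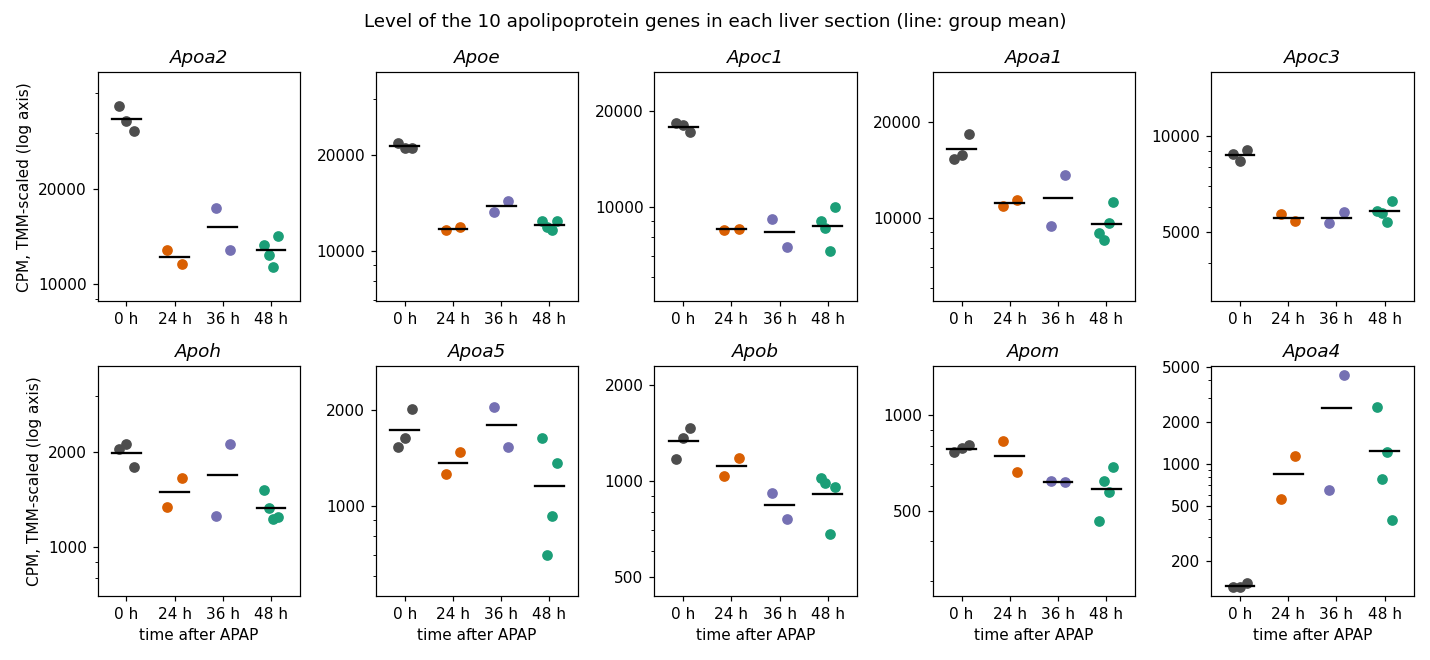
Level of each apolipoprotein gene in CPM on a log axis (TMM-scaled) in each of the 11 sections by time after APAP, with 1 point per section and a line at the group mean. All 8 injured sections lie below the 3 uninjured ones for Apoa2, Apoc1, Apoe, Apoc3 and Apoa1, and above them for Apoa4.

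The 4 members at intermediate level moved less. Apob, the VLDL backbone, measured 1171, 1365 and 1471 CPM at 0 h, 1041 and 1183 at 24 h, 919 and 761 at 36 h, and 1022, 986, 678 and 960 at 48 h. At 24 h the groups overlapped, and at 36 h and 48 h they did not. The log2 differences at the 3 times were -0.26 (SE 0.18), -0.67 (SE 0.19) and -0.55 (SE 0.15), with edgeR adjusted p = 0.272, 0.0221 and 0.0133. Without 0 h section 4 neither call held, and without 0 h section 3 or 36 h section B the 36 h call was also lost.

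Apoh, a phospholipid-binding plasma protein also known as beta-2-glycoprotein I, measured 2034, 2118 and 1784 CPM at 0 h, 1337 and 1652 at 24 h, 1253 and 2120 at 36 h, and 1517, 1330, 1231 and 1244 at 48 h. Its 2 sections at 36 h stood on either side of the uninjured range. Only the 48 h difference was called (log2 -0.57, SE 0.17, edgeR adjusted p = 0.0187), and it was lost without 0 h section 2 or 3. Apom, a lipocalin that carries a sphingolipid mediator on HDL, measured 765, 787 and 804 CPM at 0 h, 829 and 663 at 24 h, 619 and 615 at 36 h, and 463, 619.9, 571 and 684 at 48 h. It straddled the uninjured range at 24 h and lay below it afterwards, and only the 48 h difference was called (log2 -0.43, SE 0.13, edgeR adjusted p = 0.024), a call lost without any 1 of the 0 h sections or without section C at 48 h.

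Apoa5, which favours lipolysis by lipoprotein lipase, was called at no time. It measured 1535, 1632 and 2012 CPM at 0 h, 1260 and 1472 at 24 h, 2048 and 1535 at 36 h, and 1632, 696 and 929 CPM in A to C and 1365 CPM in D at 48 h. Sections at 48 h differed from each other by more than the group differed from 0 h. The log2 differences were -0.34 (edgeR adjusted p = 0.409), 0.05 (adjusted p = 0.913) and -0.58 (adjusted p = 0.0886), and without section A at 48 h the last was called.

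Apoa4, a protein of intestinal chylomicrons and of HDL that mouse liver also makes, went the other way. It was the scarcest member at 0 h, at 129, 131 and 140 CPM, and reached 555 and 1134 CPM at 24 h, 650.5 and 4373 at 36 h, and 2548, 776, 1227 and 393 at 48 h. Every injured section was above every uninjured one, and sections of the same time differed widely, most at 36 h. The log2 differences at the 3 times were 2.66 (SE 0.82), 4.23 (SE 0.86) and 3.21 (SE 0.77), or 6.32, 18.8 and 9.26 times the uninjured level, with edgeR adjusted p = 0.0258, 0.00674 and 0.00788. The 24 h call was lost without any 1 of the 0 h sections or without 24 h section B, which left a log2 difference of 2.05 (adjusted p = 0.151). The 36 h value was 2.28 (adjusted p = 0.0904) without section B and 5.03 without section A. At 48 h it was 2.58 without section A, and that call held without each section in turn.

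Apoa4 UMIs were found over the whole tissue. With every spot thinned to 2000 UMIs, 18.2% to 18.9% of spots held an Apoa4 UMI at 0 h, 64.3% and 88.4% at 24 h, 75.4% and 100% at 36 h, and 56.7% to 99.3% at 48 h. Most spots of every injured section held an Apoa4 UMI. Off-tissue spots, which hold transcripts that diffused from the section, had 118 to 136 CPM of Apoa4 (without TMM) at 0 h and 664 to 5451 CPM after injury. On tissue the same measure was 102 to 109.8 CPM at 0 h and 447 to 4597 CPM after injury, below the off-tissue level in each of the 11 sections. That was not particular to Apoa4: Apoa2, Apoe and Apoh were also below their off-tissue level in every section. Apoa5 and Apob were above theirs in every section, and the other members varied. How far diffused RNA sets the share of spots with a UMI was not tested, and that share is not read as a share of expressing cells. The mean of an Apoa4 spot's neighbours correlated weakly with the spot itself, with r of 0.017 to 0.071 at 0 h and 0.090 to 0.357 at 48 h over the spots of a section, which share their library.

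**Figure D2:**
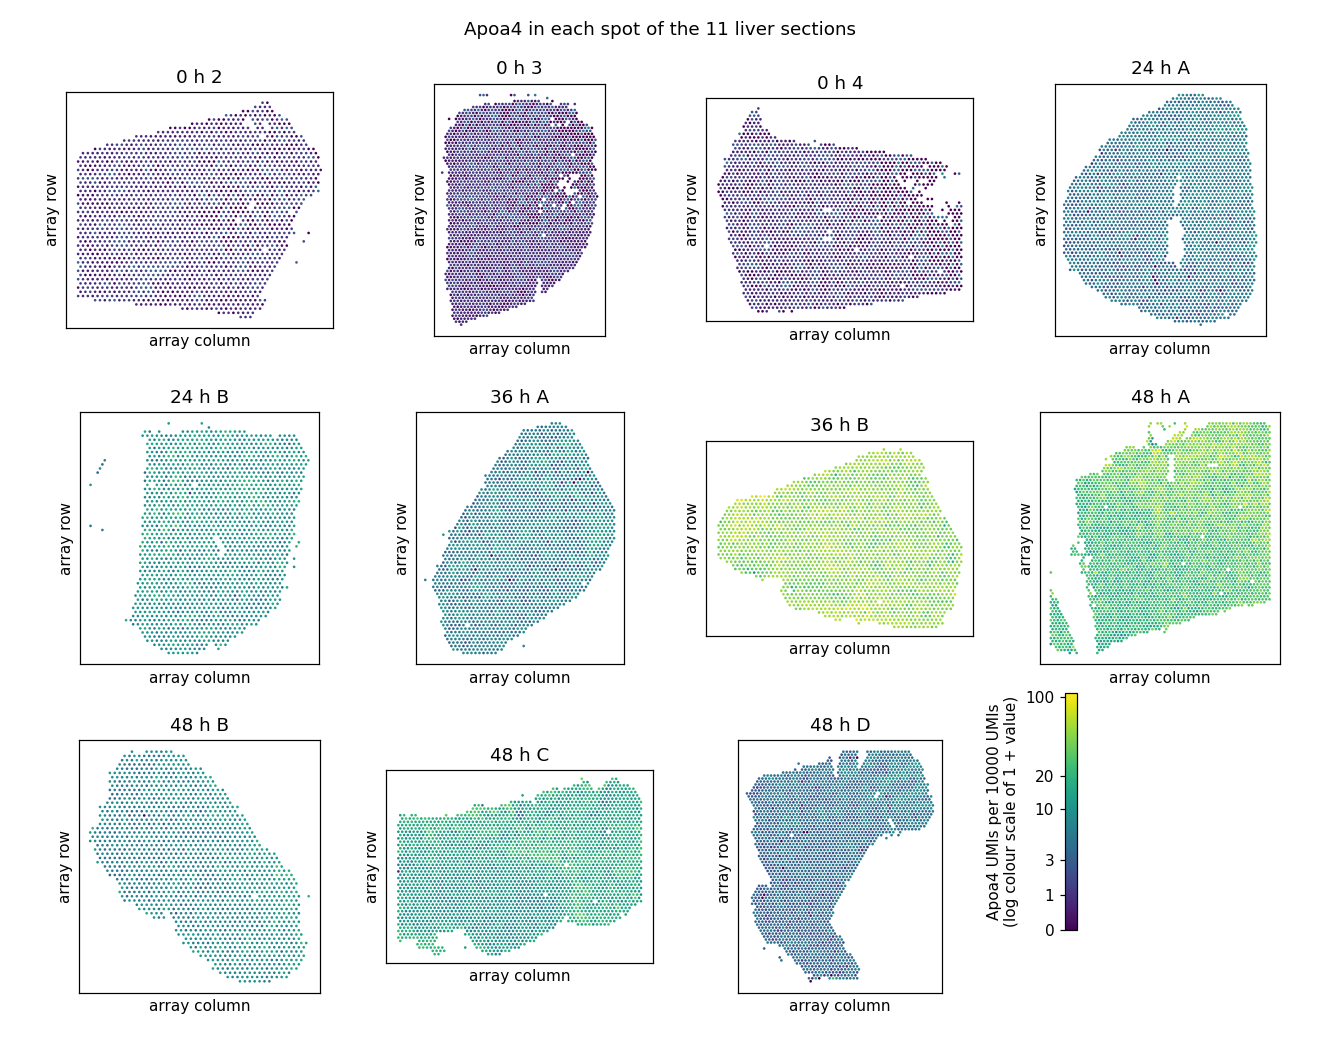
Apoa4 UMIs per 10000 UMIs of a spot, without thinning, drawn at the array position of each passing spot, with 1 panel per section and 1 log colour scale (of 1 plus the value) for all. After thinning to 2000 UMIs, at 0 h 18.2% to 18.9% of spots held an Apoa4 UMI, and section B at 36 h, where 100% did, is the brightest.

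Counted over genes, 1 member rose, 5 fell and 4 were not called at both 24 h and 36 h, and at 48 h 1 rose, 8 fell and 1 was not called. Among all 14821 genes tested, the shares called higher were 23.1%, 16.8% and 23.3% at the 3 times, and those called lower 18.6%, 12.4% and 20.9%. The median log2 difference of the 10 members was -0.48, -0.57 and -0.58 at the 3 times, and that of all genes tested was 0.05, 0.05 and 0.01. The comparisons share their 0 h sections, so they are not independent of each other.

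The direction of the middle members rests on the scaling. TMM factors were 0.783 to 0.811 at 0 h and 0.983 to 1.17 after injury, and without TMM, on total counts, the median gene moved by 0.37, 0.49 and 0.54. Under total counts 80.4%, 94.1% and 93.7% of the calls were higher, against 55.4%, 57.5% and 52.7% with TMM. Apom then turned positive at all 3 times (0.26, 0.09 and 0.10), as did Apob at 24 h (0.06) and Apoh at 36 h (0.20). Apoa2 and Apoc1 stayed lower and Apoa4 higher, all called at each time, while Apoe was called lower at 24 h and 48 h and Apoc3 at 24 h. In total counts Apoa2, Apoc1 and Apoe were lower in all 8 injured sections than in any uninjured one, and Apoa4 was higher in all 8. For this too the share of all genes is not given.

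Together the 10 genes gave 8.23% ± 0.197 (SD, n = 3) of all UMIs at 0 h. The share was 8.41%, 8.26% and 8.02% in the uninjured sections, 5.50% and 5.39% at 24 h, 6.62% and 6.67% at 36 h, and 6.47%, 5.87%, 5.81% and 6.67% at 48 h. No injured section reached the uninjured range. The injured mean was 2.11 percentage points lower, and a two-sided exact permutation test over 3 and 8 sections gave p = 0.0121, the smallest that 165 relabellings allow.

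The make-up of that share changed as well. Apoa2 gave 32.0% ± 2.22 of the family's UMIs at 0 h (n = 3) and 23.6% ± 0.646 at 48 h (n = 4), and Apoa4 went from 0.129% ± 0.00764 to 2.28% ± 1.65. Apoe gave 20.6% ± 0.0488 at 0 h and 22.4% ± 1.04 at 48 h. In the injured sections Apoa2 no longer led the family in each library. Apoe was above Apoa2 in 24 h section B, 36 h section B and 48 h section C, and Apoa1 was above Apoa2 as well in 36 h section B.

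**Figure D3:**
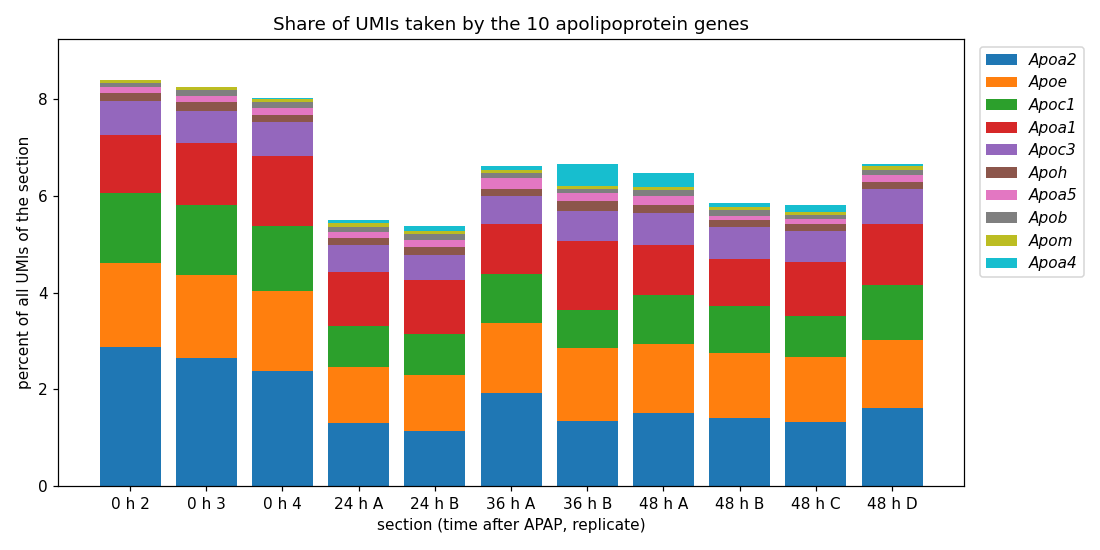
Percent of all UMIs of a section that came from each of the 10 apolipoprotein genes, stacked, with 1 bar per section from 0 on the axis. The bars reach 8.02% to 8.41% at 0 h and 5.39% to 6.67% after injury, and the Apoa2 part narrows most.

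Between neighbouring injured times, no member was called. From 24 h to 36 h the edgeR fit called 15.6% of all genes and 0 members, 0 of them with an unadjusted p under 0.05, and DESeq2 called 1. From 36 h to 48 h it called 3.05% of all genes and 0 members, 1 with an unadjusted p under 0.05. Apoa4 differed by 1.57 (SE 0.91, adjusted p = 0.252) from 24 h to 36 h and by -1.02 (SE 0.75, adjusted p = 0.474) from 36 h to 48 h, and without section B at 36 h both signs turned, to -0.34 and 0.92. The first was 2.37 without 36 h section A and 2.18 without 24 h section B, and the second was -1.82 without 36 h section A and -1.65 without 48 h section A.

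Genes that work with the apolipoproteins were followed as lists, and their counts are read against the shares of all genes called, which at 24, 36 and 48 h were 23.1%, 16.8% and 23.3% higher and 18.6%, 12.4% and 20.9% lower. The values that follow are TMM-scaled, and total-count values, computed after seeing the data, are given where they end a call or turn a direction. Under total counts 7505 of 14821 genes were called at 36 h and 9519 at 48 h. Of the calls at the 3 times 80.4%, 94.1% and 93.7% were higher, so list counts that lean higher under total counts are not read as a trait of a list. Of 6 other apolipoprotein genes 5 were tested, Apod being too low. Apoc4, which sits beside Apoc1 and Apoe, fell at all 3 times (log2 -0.69, -0.57 and -0.40, edgeR adjusted p = 0.00155, 0.00782 and 0.00938). At 48 h Apof, which inhibits cholesteryl ester transfer, fell by 0.50 (adjusted p = 0.00435), while Apoc2, the activator of lipoprotein lipase, rose by 1.05 (adjusted p = 0.0109) and Clu, a secreted chaperone, by 0.61 (adjusted p = 0.0102). Under total counts Apoc4 was called lower at 24 h (-0.36) but stood at -0.14 at 36 h and 0.13 at 48 h, and Apof at 0.03 at 48 h, none of these 3 called, while Apoc2 and Clu were called higher at 48 h.

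Among 10 HDL and acute phase partners, 4 rose and 4 fell at 24 h, 2 rose and 2 fell at 36 h, and 1 rose and 3 fell at 48 h. The serum amyloid genes Saa2 and Saa1, which replace Apoa1 on HDL in the acute phase, rose at 24 h by log2 3.68 (SE 1.22, edgeR adjusted p = 0.0355) and 3.14 (SE 1.09, adjusted p = 0.0422) and were not called later. Abcg1, a cholesterol exporter abundant in macrophages, rose at each time, by 0.92, 1.31 and 2.06. Pltp, which moves phospholipid between particles, fell by 2.16, 1.499 and 1.83, and Pon1, an HDL-bound esterase, by 1.19, 0.83 and 0.89. Lcat, which esterifies HDL cholesterol, fell by 0.74 at 24 h and 0.64 at 48 h. Under total counts 6 rose and 2 fell at 24 h, and 4 rose and 2 fell at both 36 h and 48 h, with Pltp and Pon1 lower at each time and Lcat not called.

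The direction of the VLDL assembly genes depended on the scaling. Of 10 such genes, with TMM, 2 rose and 5 fell at 24 h, 0 rose and 5 fell at 36 h, and 1 rose and 5 fell at 48 h. Mttp, which loads lipid onto Apob, fell by log2 0.85, 0.87 and 0.91 at the 3 times (edgeR adjusted p = 0.00893, 0.0132 and 0.00181). Sar1b, the coat protein that carries VLDL out of the endoplasmic reticulum, fell by 1.73, 0.95 and 0.83 (adjusted p = 3.24e-05, 0.00142 and 0.000287), and Cideb, which lipidates the particle, by 1.18, 0.84 and 0.92. A1cf, a partner of the enzyme that edits Apob mRNA, fell by 1.07, 0.91 and 0.84. Surf4 and Pdia3, of the secretory pathway, rose at 24 h by 0.42 and 0.55, and Apobec1, the editing enzyme itself, rose by 0.54 at 48 h. Under total counts 3 rose and 4 fell at 24 h, 3 rose and 2 fell at 36 h, and 4 rose and 2 fell at 48 h. Sar1b and Cideb were then still called lower at each time, A1cf at 24 h alone, and Mttp at none (-0.52, -0.42 and -0.38).

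Of 10 receptor and clearance genes, 0 rose and 3 fell at 24 h, 1 rose and 2 fell at 36 h, and 1 rose and 3 fell at 48 h. Vldlr fell by log2 3.54, 1.40 and 2.85 (edgeR adjusted p = 0.000397, 0.0268 and 0.000125), on few counts, with 24 to 89 UMIs per section at 0 h and 5 and 3 at 24 h, so that the fold is imprecise. Apobr, a macrophage receptor for Apob particles, rose by 0.94 at 36 h and 1.27 at 48 h, the time at which the phagocyte marker sum was highest, and its part in the result was not tested. Of 8 lipases and regulators 1 rose and 5 fell at 24 h, 1 rose and 1 fell at 36 h, and 1 rose and 5 fell at 48 h. Lipc, hepatic lipase, fell by 2.04, 1.73 and 1.45, Lpl rose by 0.91 at 36 h and 1.53 at 48 h, and Angptl8, a feeding-regulated inhibitor of lipoprotein lipase, rose by 2.26 at 24 h. Under total counts 1 receptor gene rose and 1 fell at 24 h, 3 rose and 0 fell at 36 h, and 5 rose and 1 fell at 48 h. Of the lipases and regulators 3 rose and 3 fell, 1 rose and 1 fell, and 2 rose and 3 fell at the 3 times. Vldlr was then not called at 36 h (-0.96), and Lipc was lower at each time.

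Of 17 transcription factors and cofactors that regulate apolipoprotein genes, with TMM 5 fell at 24 h, 1 at 36 h and 7 at 48 h, and 0 rose at any time. Under total counts 3 rose and 2 fell at 24 h, 7 rose and 0 fell at 36 h, and 4 rose and 2 fell at 48 h, so the list has no direction that holds under both scalings. Ppara, the fatty-acid sensor, fell by log2 0.85 at 24 h and 1.24 at 48 h, Rora by 0.78 and 0.67, Creb3l3 by 0.70 and 0.90 and Esrrg by 2.47 and 3.85 at 24 h and 48 h, the last gene on 1 to 5 UMIs per section at those times and 18 to 21 at 0 h. Under total counts Esrrg was still called lower at both times, Rora at 24 h and Ppara at 48 h (-0.72), and Creb3l3 at neither. Foxa2 was the 1 called at 36 h, at -0.75 (edgeR adjusted p = 0.0353), and was not called there under total counts (-0.31). With TMM the genes around the clusters did not move as a block. Of 8 beside the Apoa1 cluster 2, 1 and 2 rose and 3, 0 and 2 fell at the 3 times. Of 8 beside Apoe 2, 1 and 3 rose and 2, 2 and 4 fell. Beside the Apoa1 cluster Tagln, a smooth muscle gene, rose by 2.01, 1.59 and 2.31 while Sik3 fell by 0.52 at 24 h and 0.62 at 48 h. Beside Apoe the factor Relb rose by 1.34, 0.62 and 0.79 while Nectin2 fell by 0.77, 0.79 and 0.97. Under total counts Tagln and Relb were still called higher at each time, and Sik3 and Nectin2 were not called at any. Beside the Apoa1 cluster 4, 3 and 5 genes then rose and 0 fell, and beside Apoe 2, 4 and 4 rose and 1, 0 and 0 fell.

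The second comparison asked where in the lobule the members lay. After leaving out the 10% of spots with the lowest hepatocyte-list score, the spots of each section were cut into 3 equal classes by a 12-gene portal list, and UMIs of the highest (periportal) and the lowest (portal-poor) class were summed per section. That list was drawn from the study's own spatial data and holds no apolipoprotein. As a check, 8, 8, 7 and 7 of 8 portal landmark genes outside the list were called higher in periportal spots at the 4 times in order, and of 8 central landmarks 8, 3, 1 and 5 were called lower, with 1 called higher at 48 h. Of all 13711 genes tested, 1296, 2954, 2576 and 7709 were called at these times, 629, 1584, 1447 and 3511 of them higher and the rest lower. Fewer central landmarks separated the classes after injury than before.

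At 0 h, 4 members were called higher in periportal spots, against 4.59% of the 13711 genes tested. Apoa4 had the steepest gradient (log2 0.71, SE 0.09, edgeR adjusted p = 4.46e-05), with ratios of 0.80, 0.69 and 0.64 in the 3 sections, and had a mean of 82.6 CPM (without TMM) in portal-poor and 132 CPM in periportal spots. Apoa5 followed at 0.30 (adjusted p = 0.000257), Apoc3 at 0.24 (adjusted p = 0.000696) and Apob at 0.18 (adjusted p = 0.016), the last lost without any 1 of the 0 h sections. The other 6 were not called. Apoa2 stood at -0.09, Apoe at -0.06, Apoc1 at -0.002 and Apoh at -0.11, and none of these was above 0. Apoa1 stood at 0.12, with 0.11, 0.15 and 0.11 in the 3 sections, and Apom at 0.13 (edgeR adjusted p = 0.11 for both).

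After injury all 10 members were called higher in periportal spots at 24 h, at 36 h and at 48 h, where 11.6%, 10.6% and 25.6% of all genes were. The member median was 0.47, 0.40 and 0.61, against 0.13 at 0 h, while that of all genes was 0.01, 0.00 and -0.03. At 48 h the gradient was steepest for Apoa5 (0.92), Apoc1 (0.72), Apoa2 (0.72), Apob (0.69), Apoc3 (0.62) and Apoh (0.60). It was shallow for Apoe (0.39), Apom (0.30), Apoa4 (0.29) and Apoa1 (0.12). Under total-count scaling, 7, 5 and 8 members were called at the 3 times, counted in either direction. At 48 h Apoa1 turned to -0.16 and was called lower in periportal spots. Without section B, which leaves a single section at 24 h or 36 h, fewer members were called, and fewer of all genes.

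The gradient itself changed with injury. Against 0 h, it was higher for 8 members at 24 h, all but Apoa4 and Apoa5, and for 6 at 36 h, against 6.72% and 6.99% of all genes, and lower for 0 members at both times, against 4.57% and 4.19%. At 48 h it was higher for 7 members and lower for 1, against 18.3% and 16.0% of all genes. Apoa2 changed most at 48 h, by 0.81 (SE 0.07, edgeR adjusted p = 3.1e-10). Its per-section ratios were -0.10, -0.10 and -0.06 at 0 h, 0.24 and 0.47 at 24 h, 0.33 and 0.46 at 36 h, and 0.64, 0.76, 0.91 and 0.58 at 48 h. All 8 injured sections were above all 3 uninjured ones.

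Apoc1 and Apoh changed by 0.73 and 0.71 at 48 h (edgeR adjusted p = 3.37e-10 and 6.97e-09), Apoa5 by 0.63, Apob by 0.51, Apoe by 0.44 and Apoc3 by 0.37. The 1 member that went the other way was Apoa4, whose gradient fell by 0.43 (SE 0.11, adjusted p = 0.00743). Its ratios at 48 h were 0.04, 0.34, 0.27 and 0.52, below the 0.64 to 0.80 of the uninjured sections. That call was lost without section C at 48 h (adjusted p = 0.0797). The 24 h count of 8 went to 5 without 0 h section 2 and 4 without 0 h section 3. Calls over all genes fell as well, from 1548 to 949 and 961. Most of the members' calls at 24 h and at 36 h did not hold without section B of that time, which leaves a single section there.

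**Figure D4:**
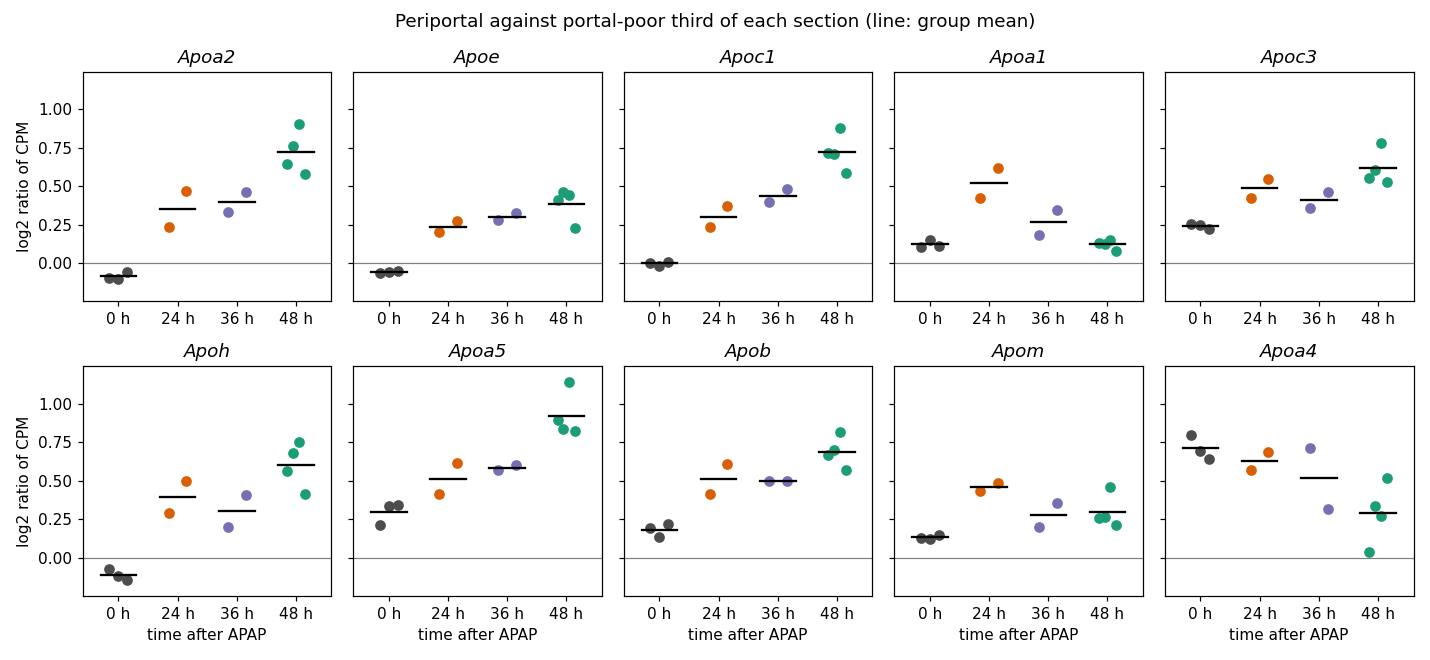
Log2 ratio of CPM in periportal spots to that in portal-poor spots for each apolipoprotein gene, with 1 point per section, a line at the group mean and a grey line at 0 (no difference). Apoa2 goes from -0.10 to -0.06 at 0 h to 0.58 to 0.91 at 48 h, whereas Apoa4 goes from 0.64 to 0.80 down to 0.04 to 0.52.

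Hepatocyte genes outside the family and phagocyte markers moved along the same axis. Ttr, a secreted hepatocyte protein, had a mean gradient of 0.01 at 0 h and 0.36, 0.29 and 0.54 at 24, 36 and 48 h, and Alb, albumin, had 0.48, 0.56, 0.48 and 0.68. The phagocyte score, the mean over the 6 markers of the natural log of 1 plus UMIs per 10000, was 0.228 to 0.259 in periportal and 0.208 to 0.230 in portal-poor spots at 0 h. At 48 h it was 0.241 to 0.410 in periportal and 0.489 to 0.877 in portal-poor spots. At that time 7709 of 13711 genes were called, 3511 of them higher, and all 6 phagocyte markers were called lower in periportal spots. Their part in the members' gradient was not tested. A setting chosen after seeing the data left out the 50% of spots with the lowest hepatocyte-list score. It called 4, 10, 10 and 8 members at 0, 24, 36 and 48 h. Calls over all genes went from 2954 to 1441 at 24 h and from 7709 to 4940 at 48 h. The 48 h gradient was 0.49 for Apoa2 and 0.70 for Apoa5. Not called at 48 h were Apoa1 (0.006, edgeR adjusted p = 0.927) and Apoa4 (0.22, adjusted p = 0.0805). The change of Apoa4's gradient at 48 h was -0.41 there and was not called (adjusted p = 0.104).

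The third comparison set the 10% of spots with the lowest hepatocyte-list score against the other spots of the section. In uninjured tissue these spots were rich in central genes: 7 of the 8 central landmarks were called higher there. Against 2.40% of the 14581 genes tested, 5 members were called lower at 0 h, Apoa4 at -0.63, Apoa1 at -0.32, Apoc3 at -0.31, Apoa5 at -0.28 and Apom at -0.25. Without any 1 of the 0 h sections 1 remained called. Calls over all genes fell too, from 517 to 211, 296 and 149 without sections 2, 3 and 4. Apoa2, Apoe, Apoc1, Apoh and Apob lay between -0.13 and -0.06 and were not called.

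These spots were chosen for low hepatocyte transcripts, so a low level of other hepatocyte genes there is partly set by the choice. Of the choosing genes, Ttr had a mean log2 difference of -0.21 at 0 h and -0.78, -0.78 and -1.23 at 24, 36 and 48 h, and Alb of -0.57, -0.92, -0.91 and -1.43. The members are described beside them. After injury all 10 were lower and called at 24, 36 and 48 h, where 17.4%, 16.3% and 30.0% of all genes were. Apob, with a log2 difference of -0.13 at 0 h, stood at -0.99, -0.92 and -1.47 afterwards, and Apoa2 went from -0.06 to -0.59, -0.85 and -1.32. Apoa2's sections at 48 h were at -1.23, -1.22, -1.65 and -1.19, all below those at 0 h (-0.04, -0.05 and -0.09). Apoe was the least depleted at 24, 36 and 48 h, at -0.40, -0.60 and -0.67. The phagocyte score of these spots was 0.204 to 0.222 at 0 h, 0.551 to 0.573 at 24 h, 0.614 to 0.826 at 36 h and 1.03 to 1.53 at 48 h.

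Against 0 h, the depletion was deeper for 8 members at 24 h, 9 at 36 h and 9 at 48 h, against 10.4%, 10.4% and 20.3% of all genes. Without either 24 h section, which leaves a single one, fewer members were called at 24 h, and fewer of all genes. The change at 48 h was -1.34 for Apob (SE 0.09, edgeR adjusted p = 2.74e-14), -1.27 for Apoh, -1.26 for Apoa2, -1.20 for Apoc1 and -1.16 for Apoa5. It was -0.57 for Apoe and -0.52 for Apoa1, both called. Apoe was not called at 24 h, and Apoa4 was not called at any of the 3 times, with changes of -0.23, -0.24 and -0.07 (adjusted p = 0.419, 0.378 and 0.754). Its sections at 48 h (-0.88 to -0.42) lay within the range of those at 0 h (-1.03 to -0.32).

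**Figure D5:**
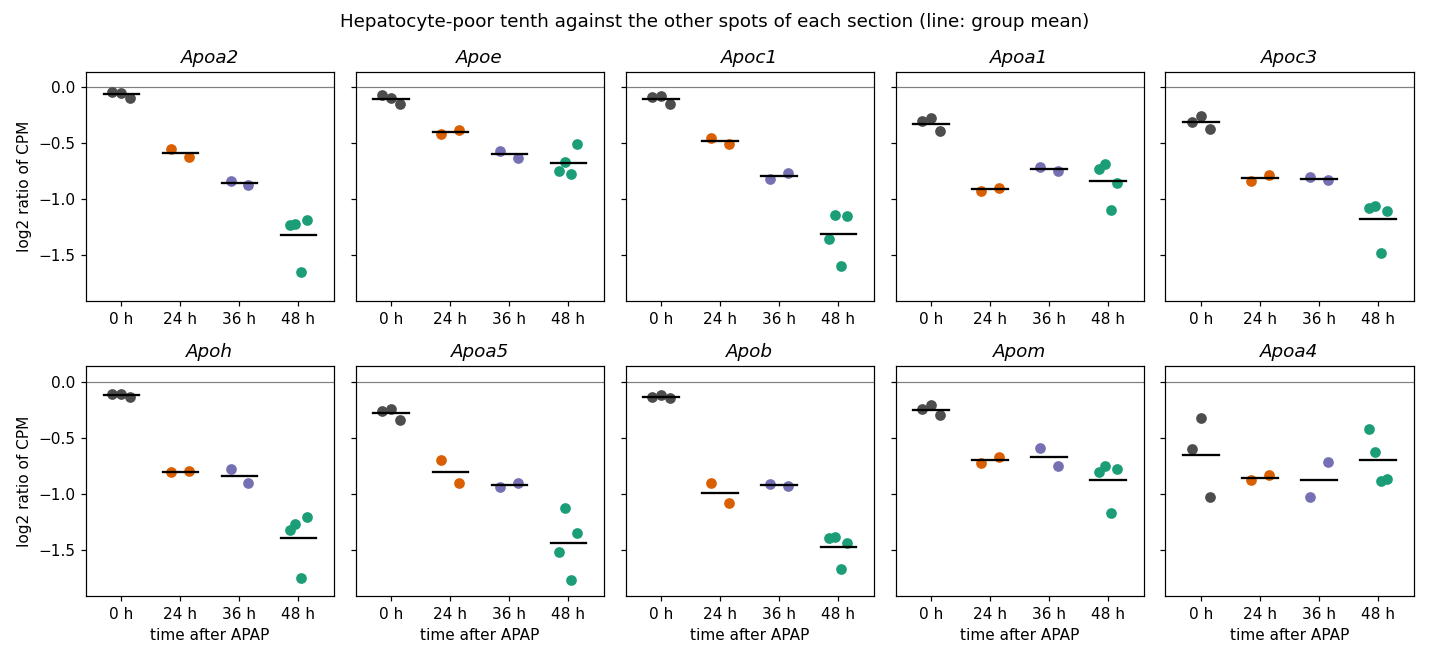
Log2 ratio of CPM in the hepatocyte-poor 10% of spots to that in the other spots for each apolipoprotein gene, with 1 point per section, a line at the group mean and a grey line at 0. Apoa2 goes from -0.09 to -0.04 at 0 h to -1.65 to -1.19 at 48 h, and Apoa4 is low at all times.

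Spot by spot, at 48 h the correlation with the phagocyte score over the spots of a section was -0.640 to -0.498 for Apoa2 and -0.567 to -0.487 for Apoc1, against -0.131 to -0.081 and -0.018 to 0.013 at 0 h. For Apoa4 it was -0.044 to 0.027 at 48 h, and for Apoe, which macrophages also make, -0.254 to -0.048. Spots of a section share their library and depth, so these are descriptions.

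The genes whose profile over the 11 sections was nearest to a member's, by root mean square (RMS) difference of centred log2 CPM among 7092 genes, were Scap, Glo1 and Eci1 for Apoa2 (0.110, 0.132 and 0.154 log2 units) and Glo1, Eif4a2 and Cyp2r1 for Apoc1 (0.0753, 0.0996 and 0.109). For Apoe they were Bag4, Slc46a1 and Tmprss6 (0.0718, 0.0804 and 0.0833). Apoa4 had no close match, its nearest being Fkbp5 (0.667), Anxa2 (0.736) and Slpi (0.772), against an RMS of 1.63 for Apoa4 itself. Apoa5 came next, with its nearest gene Tmem57 at 0.218.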

How the data were processed

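The deposited matrices held raw UMI counts per gene and spot, which the authors made with Space Ranger 1.0.0 against mm10. Spots under the authors' tissue mask were kept from 800 genes up and to a mitochondrial share of 20%, as in the study, whose further manual removal of spots was not repeated, and summed per section, the unit of replication. Section sums (31292663 to 67045372 UMIs) were tested with edgeR 4.0.16 in R 4.3.3 (filterByExpr, TMM, robust quasi-likelihood fit of all 11 sections, Benjamini-Hochberg adjustment over all genes tested, called at an adjusted p under 0.05, two-sided). The common biological coefficient of variation was 0.194. On simulated counts with 200 changed genes, in equal parts 4-fold and 2-fold, the steps recovered 145, 137 and 166 for 24, 36 and 48 h against 0 h. Of the 4-fold changes 98, 97 and 100 were recovered, and of the 2-fold changes 47, 40 and 66. Of the calls 5.84%, 9.27% and 5.68% were false.

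For zones, each spot was thinned to 2000 UMIs and scored by lists of hepatocyte (5) and portal (12) genes. The full UMIs of the spot classes were then summed per section and fitted with edgeR with section as a block and a class effect per time. DESeq2 1.42.0, total-count scaling, other cuts of the spots and leaving out each section were alternatives.

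All members are named, and of each other list at most the 3 called genes with the largest change each way. Likeness used genes with a mean of at least 10 CPM and a pseudocount of 0.5 CPM. The members and lists were chosen with earlier results of these data known. The image scale factors were not used here. Some listed genes are counted but not reported by name here.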

Additional observations from a re-analysis of the deposited data

Results flagged for a closer look

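Section C at 48 h stood apart from the other 3 sections of its time in the hepatocyte-poor spots: its log2 difference from the other spots was -1.65 for Apoa2, -1.47 for Apoc3 and -1.17 for Apom, by Dixon's test at the 95% level. These were 3 of 31 sets of 4 sections examined, and chance marks about 5% of such sets.

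The periportal gradient differed from that at 0 h by an interaction term (edgeR adjusted p under the threshold) for the members that follow. In log2 units, the change at 24 h was Apoa2 0.44, Apoc1 0.30, Apoe 0.29, Apoa1 0.40, Apoc3 0.24, Apoh 0.50, Apob 0.33 and Apom 0.33. At 36 h it was Apoa2 0.48, Apoc1 0.44, Apoe 0.36, Apoa5 0.29, Apoh 0.41 and Apob 0.32. At 48 h it was Apoa2 0.81, Apoc1 0.73, Apoe 0.44, Apoc3 0.37, Apoa4 -0.43, Apoa5 0.63, Apoh 0.71 and Apob 0.51, so that Apoa4 alone among the called members had a shallower gradient than before injury.

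The difference between hepatocyte-poor and other spots also changed by the same kind of term. At 24 h the change was Apoa2 -0.53, Apoc1 -0.37, Apoa1 -0.59, Apoc3 -0.50, Apoa5 -0.52, Apoh -0.69, Apob -0.86 and Apom -0.45. At 36 h it was Apoa2 -0.79, Apoc1 -0.68, Apoe -0.49, Apoa1 -0.40, Apoc3 -0.51, Apoa5 -0.64, Apoh -0.73, Apob -0.79 and Apom -0.42. At 48 h it was Apoa2 -1.26, Apoc1 -1.20, Apoe -0.57, Apoa1 -0.52, Apoc3 -0.87, Apoa5 -1.16, Apoh -1.27, Apob -1.34 and Apom -0.63. Apoa4 is absent from all 3 of these lists.

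Spots outside the tissue, which entered no comparison, held Apoa4 at a median of 1350 CPM (without TMM scaling) over the 8 injured sections, against 118 to 136 CPM in the uninjured sections. Like Apoa4, Apoa2, Apoe and Apoh were higher off tissue than on it in every section, whereas Apoa5 and Apob were lower.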

How the results depend on the processing

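With total-count scaling in place of TMM, the members called numbered 3 at 36 h and 4 at 48 h against 0 h, 5 for the periportal comparison at 36 h and 3 for its change at 24 h, 1 in hepatocyte-poor spots at 0 h, and 4 and 5 for the change there at 24 h and 36 h. Over all genes the calls, in the same order, were 7505 and 9519 of 14821, 3680 and 1994 of 13711, and 498, 2993 and 3758 of 14581. With TMM they were 4329, 6552, 2576, 1548, 517, 2451 and 2736. Total-count scaling also moved single genes. It turned the sign of Apob (0.061) and Apom (0.26) at 24 h, Apoh (0.20) and Apom (0.091) at 36 h and Apom (0.10) at 48 h. Among the partner genes it turned Apoc4 (0.13), Apof (0.028), Lrpap1 (0.16) and Cblc (0.10) at 48 h, a setting added for those lists after seeing the data. In the zone fits it turned Apoa1 at 48 h (-0.16, called lower). It also turned the change of Apoa1 (-0.024) and Apom (-0.021) at 36 h and that of Apom (-0.086) at 48 h. In hepatocyte-poor spots it turned Apoa2 (0.055), Apoc1 (0.011) and Apoe (0.013) at 0 h and the change of Apoa4 at 24, 36 and 48 h (0.0032, 0.0017 and 0.27).

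DESeq2 called 1 member from 24 h to 36 h and 3 in hepatocyte-poor spots at 0 h. Zones cut by portal minus central list gave 7 members at 0 h, 5 called higher and 2 lower in periportal spots, where 1999 of 13640 genes were called. The lowest 20% of spots in place of 10% gave 1 at 0 h and 5 for the change at 36 h, where 256 and 1993 of 14374 genes were called. Apoc1's gradient at 0 h was 0.00091 with 5 classes, 0.0079 with no spots left out and 0.00096 without the lowest 50% by hepatocyte score, a setting chosen after seeing the data. The change of Apoa1's gradient at 48 h was 0.00066 by DESeq2, 0.017 with 5 classes, 0.19 with no spots left out and 0.019 with spots thinned to 4000 UMIs. The cause of these shifts was not tested. Counts over all genes moved too: at 36 h against 0 h 4329 genes were called and 7505 under total counts, from 24 h to 36 h 2312 and 1 when only those sections were fitted, and from 36 h to 48 h 452, 0 in that fit and 1224 by DESeq2. For the gradient the counts were 1296 and 1999 by portal minus central list at 0 h, 2576 and 3958 with no spots left out at 36 h, and for its change 1548 and 2478 at 24 h and 1534 and 2602 at 36 h with no spots left out. Without the lowest 50% of spots the gradient had 1441 calls against 2954 at 24 h and 4940 against 7709 at 48 h, and its change 569 against 1548 at 24 h and 2346 against 4712 at 48 h. Hepatocyte-poor spots at 0 h gave 517, 309 by DESeq2 and 256 with the lowest 20%. Leaving out 0 h section 2, 3 or 4 gave 211, 296 or 149 there. Leaving out 0 h section 2 or 3 gave 949 or 961 for the gradient's change at 24 h, against 1548.

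Leaving out each section in turn gave 6 to 10 members for the gradient at 24 h and 5 to 10 at 36 h, 0 to 9 for its change at 24 h and 1 to 6 at 36 h, 1 to 5 in hepatocyte-poor spots at 0 h, and 5 to 9 for the change there at 24 h. Signs turned within these ranges: Apom at 24 h (-0.24 to 0.077), Apoa5 (-0.17 to 0.25) and Apoh (-0.66 to 0.10) at 36 h, Apoa4 from 24 h to 36 h (-0.34 to 2.37) and from 36 h to 48 h (-1.82 to 0.92), Apoc1's gradient at 0 h (-0.012 to 0.0085), and the 48 h change of Apoa1's gradient (0.0057 to 0.036, about 0 with all sections) and of Apoa4 in hepatocyte-poor spots (-0.24 to 0.11).

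Section letters A and B are shared by the injured times, and same-lettered sections deviated together between 24 h and 36 h (correlation 0.46, the same for A and B because 2 centred sections mirror each other) but not with 48 h (-0.17 and 0.017 for A, -0.17 and -0.27 for B), so the letters were not taken as pairs throughout, and 0 members were called with or without a replicate block between neighbouring injured times (over all genes, 82 with the block and 984 without from 24 h to 36 h, and 0 and 7 from 36 h to 48 h, in the injured sections). No paired analysis against 0 h was possible because those sections are numbered otherwise. Depth limits the low spots: at 2000 UMIs Apoa4 was seen in 18.2% to 18.9% of spots at 0 h.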
